A study of Rattus norvegicus with 6 samples.

Results

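The genes described here carry glucose into the cell, break it down to pyruvate and lactate, pass part of it through the pentose phosphate pathway, and deliver pyruvate to the mitochondrion. They were chosen by name, as 38 genes of these routes, and 36 of them were found among the 61453 loci of the deposited tables. *Gapdh* and *Pgd* matched no locus by name and were not analysed here under those names. Where several loci carried a symbol, the protein-coding locus with the highest mean level was used. The levels are in FPKM, fragments scaled to the length of the locus and the size of the library, which allows genes of different length to be compared.

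RNA was measured by sequencing in the corneal epithelium of male Brown Norway rats weighing between 150 and 200 g. Diabetic rats had received 1 intraperitoneal injection of streptozotocin (STZ) at 50 mg/kg, a drug that destroys the insulin-producing cells of the pancreas, and were accepted as diabetic at a blood glucose above 16.67 mmol/l. Normal rats had received citrate buffer. There were 3 diabetic and 3 normal libraries, all taken 16 weeks after injection, and the comparison asks which transcripts differ in a model of diabetic keratopathy. The study used 6 rats in all and 6 corneas a group, so that 3 rats stand behind the 3 libraries of a group. The labels tie no library to a rat, and the p-values measure the spread between these libraries only.

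The corneal epithelium has no blood vessels of its own and draws its glucose largely from the aqueous humour. It is known for a glycolytic metabolism that ends mostly in lactate, and for an active pentose phosphate pathway, which supplies NADPH against oxidation by light and oxygen. In glycolysis hexokinase traps glucose, phosphofructokinase commits it to breakdown, and pyruvate kinase releases pyruvate, which lactate dehydrogenase turns to lactate or the pyruvate dehydrogenase complex turns to acetyl-CoA.

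The libraries held 62288901 to 87040253 counts, so that a locus without counts may still have held up to 0.0345 to 0.0482 CPM (counts scaled to the library total) from counting error alone. *Krt12*, the keratin of corneal epithelial cells, stood at 4455, 4045 and 3858 FPKM in diabetic libraries, against 4223, 3964 and 3660 FPKM in normal libraries, as the label of the tissue says. *Krt12* was among 13 tested markers of corneal epithelium, which went both ways between the groups. In the tests described below, 4 of the 13 were higher in diabetic libraries and 9 lower, with a median log2 change of −0.12. Of these markers 0 passed, and for *Upk1b* alone each diabetic library exceeded each normal one. Transcripts of the lens were uneven. The summed level of 11 lens genes, crystallins for the most part, was 165, 1368 and 8.59 FPKM in diabetic replicates 1, 2 and 3, against 397, 123 and 163 FPKM in normal replicates 1, 2 and 3. The summed level of 9 genes of stromal keratocytes was 824 to 904 FPKM in diabetic libraries, against 895 to 1155 FPKM in normal libraries. The log2 change was positive for 1 of the 9 and negative for 8, with a median of −0.25, and 0 passed. For 2 of them, *Lum* and *Thbs4*, each diabetic library lay below each normal one, which held for 5.72% of all loci. For 5 genes listed for conjunctiva and goblet cells, mostly keratins such as *Krt13* and *Krt4*, the summed level was 1241, 1216 and 575 FPKM in diabetic replicates 1, 2 and 3. In normal replicates 1, 2 and 3 it was 1246, 1460 and 891 FPKM. The locus used for *Krt19* in this list is the one used for *Krt14* among the 13 markers of corneal epithelium, so it enters both lists. In tissue RNA of this kind, fewer cells of a type and less RNA per cell cannot be told apart.

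No gene of these routes passed a test between diabetic and normal rats. Of the 36 genes found, 34 reached the minimum of a mean of 0.5 FPKM and were tested. With limma, 0 of the 34 passed both thresholds (adjusted p under 0.05, fold change over 1.2), and over all 42551 loci 0.0259% passed. On the deposited counts edgeR called 0 of the 34, against 0.0141% of all loci, and DESeq2 called 0, against 0.233% of all loci. Without adjustment, limma placed 0 of the 34 under a p of 0.05 (4.8% of all loci), edgeR placed 1 there (4.14% of all loci) and DESeq2 placed 1 there (4.99% of all loci), in both cases *Aldoc*. The limma adjusted p of the 34 genes ran from 0.953 to 0.997.

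The fold changes were small for most of the genes. The log2 fold change, diabetic over normal on the log2(FPKM + 1) scale, was positive for 22 genes and negative for 12, with a median of 0.04. Over all loci the median was −0.0049, and 49% were positive. For 26 of the 34 genes the 95% interval of limma lay within a change of 1.5-fold either way in FPKM + 1, and for 30 within 2-fold. With 1 added to each FPKM, the change of genes with low values and the width of their intervals are understated, and 21 of the 34 averaged under 10 FPKM. The remaining intervals were wider, so a change of 2-fold in FPKM + 1 could not be told from none for *Aldoc*, *Tpi1*, *Eno2* and *Ldhb*. In FPKM itself this may hold for further genes of low level.

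**Figure D1:**
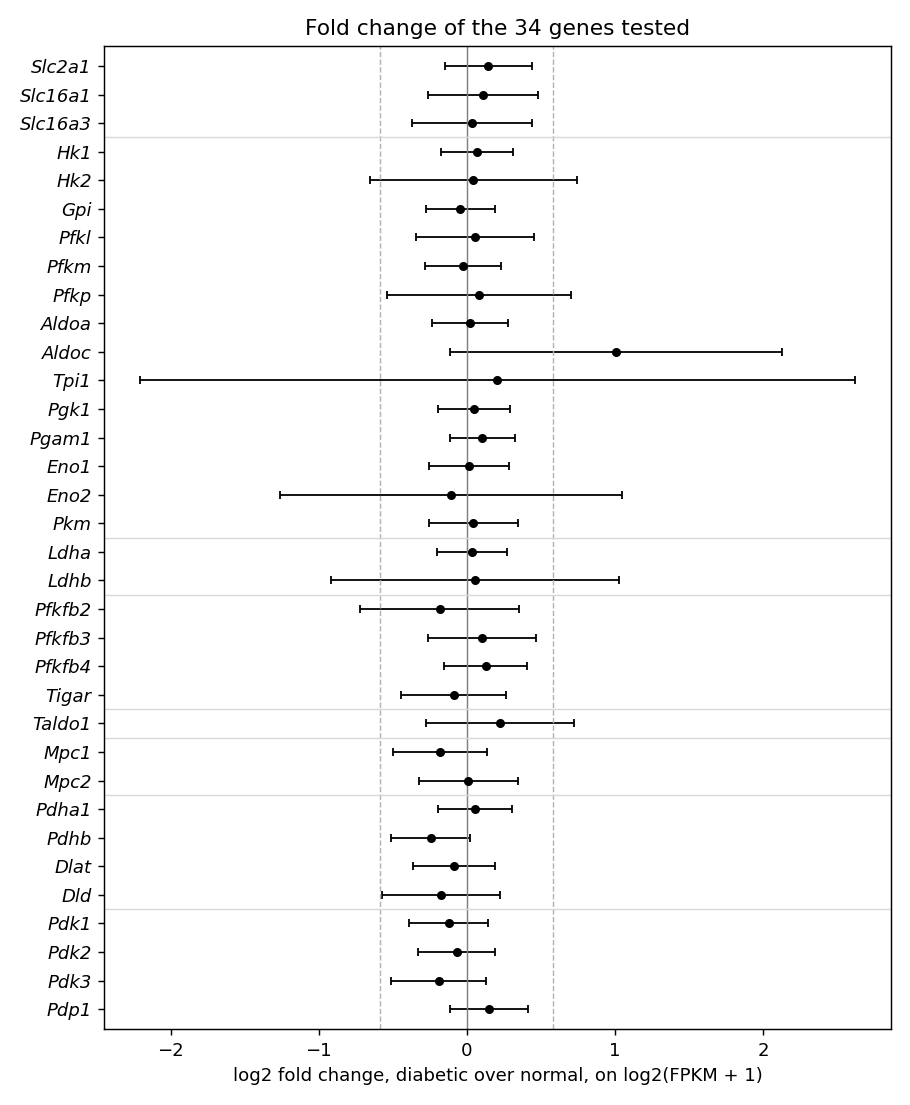
Log2 fold change of the 34 tested genes, diabetic over normal, on the log2(FPKM + 1) scale (horizontal axis), with the 95% interval of limma as bars, genes grouped by role and dashed lines at 1.5-fold either way. All 34 intervals cross 0, and those of *Tpi1*, *Eno2*, *Aldoc* and *Ldhb* are the widest.

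The diabetic and normal levels did not overlap for 2 of the 34 genes, against 9.66% of all loci. For *Pgam1* alone each diabetic library exceeded each normal one, which held for 3.94% of all loci, and for *Pdhb* alone each was lower, which held for 5.72% of all loci.

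Among the carriers of the cell membrane, *Slc2a1*, which encodes the glucose transporter GLUT1 (rn6 chr5:138154673-138182897, plus strand), had the highest level. It stood at 31.8, 28.3 and 25.7 FPKM in diabetic libraries, against 30.3, 25.7 and 22.2 FPKM in normal libraries. The groups overlapped over most of their range, and the log2 fold change was 0.15 (SE 0.13). *Slc2a3*, a second glucose transporter with a high affinity for glucose, was at 0.236 ± 0.068 FPKM in diabetic and 0.099 ± 0.110 FPKM in normal libraries (mean ± SD, n = 3 each), from 0 to 40 counts a library, and was under the minimum for testing. *Slc16a1* and *Slc16a3* encode carriers that move lactate and pyruvate across the membrane. *Slc16a1* averaged 1.65 ± 0.210 FPKM in diabetic and 1.496 ± 0.305 FPKM in normal libraries, and *Slc16a3* averaged 1.26 ± 0.385 FPKM in diabetic and 1.22 ± 0.104 FPKM in normal libraries. At the loci used, *Slc16a1* and *Slc16a3* were thus present at a small part of the level of *Slc2a1* in both groups. A second locus named *Slc16a3*, which was left out, held 0.793 to 1.3 FPKM. *Slc16a7*, of the same gene family, was tested among other genes of glycolysis and stood above both. It averaged 6.57 ± 1.33 FPKM in diabetic and 7.03 ± 0.94 FPKM in normal libraries.

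**Figure D2:**
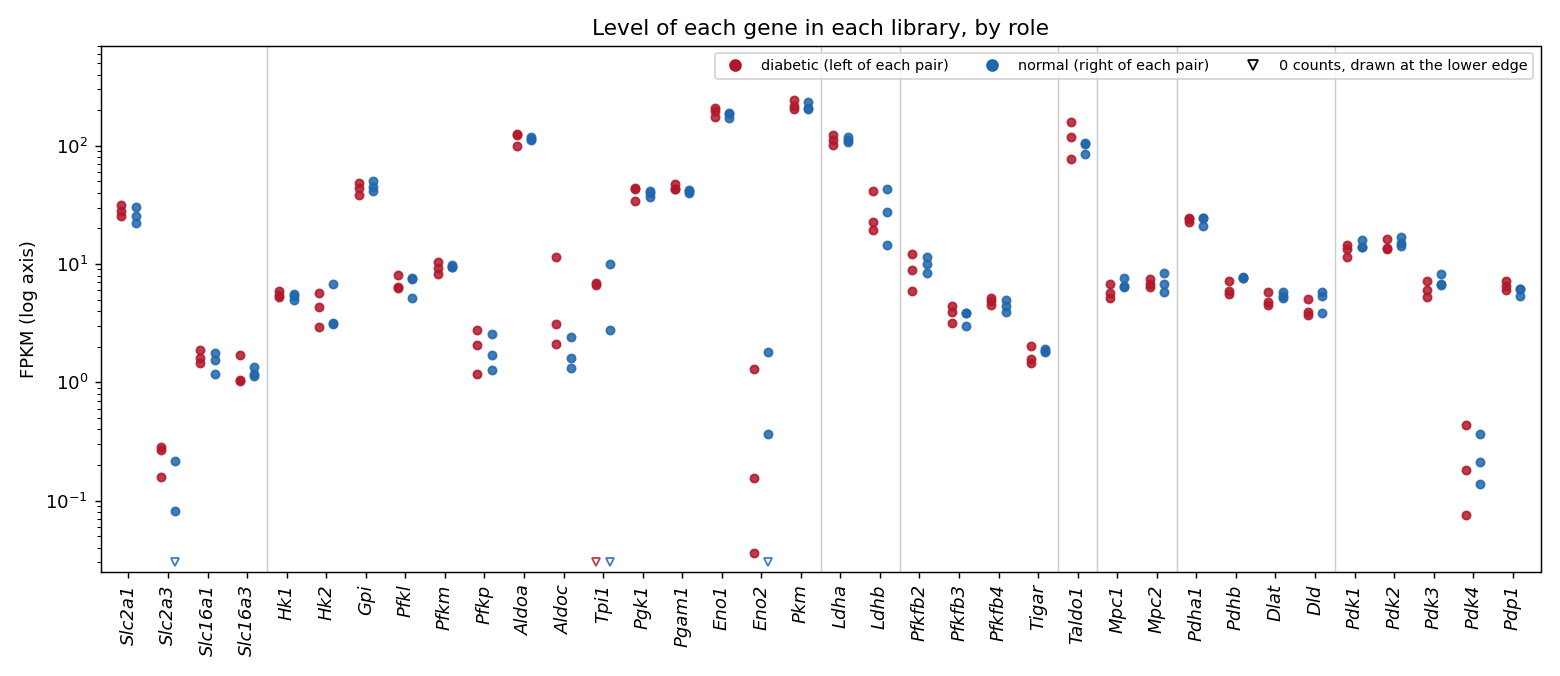
FPKM of the 36 genes found (log axis) in each of 3 diabetic libraries (red, left) and 3 normal libraries (blue, right), with grey lines between roles and open triangles for 0 counts. *Pkm* and *Eno1* stand highest in both groups, and *Tpi1* and *Eno2* spread farthest between libraries.

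Hexokinase, which phosphorylates glucose as it enters, was present as *Hk1* and *Hk2* at similar levels. *Hk1*, the form of most tissues, averaged 5.56 ± 0.372 FPKM in diabetic and 5.31 ± 0.309 FPKM in normal libraries. *Hk2*, the form that muscle regulates by insulin, averaged 4.33 ± 1.38 FPKM in diabetic and 4.37 ± 2.14 FPKM in normal libraries. *Hk1* took 67.1%, 48.0% and 55.6% of the hexokinase FPKM in diabetic libraries, against 61.0%, 44.1% and 64.3% in normal libraries. The share thus varied as much within each group as between them, and its mean differed by 0.43 percentage points (2-sided exact permutation p = 1, where 3 against 3 libraries cannot go below 0.1).

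*Gpi*, which interconverts glucose and fructose phosphates, was at 43.8 ± 5.05 FPKM in diabetic and 45.6 ± 4.46 FPKM in normal libraries. Phosphofructokinase was led by the muscle form *Pfkm*, at 9.33 ± 1.11 FPKM in diabetic and 9.60 ± 0.172 FPKM in normal libraries. The liver form *Pfkl* followed at 6.89 ± 1.04 FPKM in diabetic and 6.75 ± 1.39 FPKM in normal libraries. The platelet form *Pfkp* was lowest, at 2.01 ± 0.810 FPKM in diabetic and 1.85 ± 0.662 FPKM in normal libraries. *Pfkm* took 47.6% to 53.0% of the phosphofructokinase FPKM in diabetic libraries, against 49.3% to 58.1% in normal libraries, and was the leading form in each of the 6 libraries.

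Aldolase splits the 6-carbon sugar, and nearly all of it was *Aldoa*. *Aldoa* averaged 117 ± 15.4 FPKM in diabetic and 115 ± 3.17 FPKM in normal libraries. *Aldoc*, the aldolase known from brain (rn6 chr10:65586504-65590093, plus strand), is named here because its fold change was the largest of the 34, which was seen in its values first. It stood at 2.13, 11.4 and 3.09 FPKM in diabetic libraries, against 2.40, 1.59 and 1.31 FPKM in normal libraries. Diabetic replicate 2 was high and diabetic replicate 1 lay within the range of the normal libraries, so the groups overlapped.

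The log2 fold change of *Aldoc* was 1.01 with limma (SE 0.48, adjusted p 0.953). On the counts it was 1.69 with edgeR (adjusted p 0.991) and 1.69 with DESeq2 (adjusted p 0.257). Without diabetic replicate 2 the limma value was 0.40. The lens level was 165, 1368 and 8.59 FPKM in diabetic replicates 1, 2 and 3. Diabetic replicate 2 was thus highest in both, while *Aldoc* was lowest in diabetic replicate 1 and the lens level in diabetic replicate 3. Among normal libraries, replicate 1 was highest in both, while *Aldoc* was lowest in replicate 3 and the lens level in replicate 2. The part of lens RNA in the level of *Aldoc* was not tested. *Aldoa* took 95.6 ± 3.57% of the aldolase FPKM in diabetic and 98.5 ± 0.43% in normal libraries (2-sided exact permutation p = 0.2).

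Triosephosphate isomerase, encoded by *Tpi1* (rn6 chr4:157328379-157331905, minus strand), could not be read from its own locus. *Tpi1* had 993, 690 and 0 counts in diabetic libraries, against 1306, 0 and 374 counts in normal libraries. An enzyme that every glycolytic cell needs was thus listed at 0 in 1 diabetic and 1 normal library, although each library was deep. The locus LOC100911515 (rn6 chr9:20213588-20217176, plus strand), which the files describe as triosephosphate isomerase-like, had 2240, 1488 and 1711 counts in diabetic libraries, against 2421, 1862 and 2093 counts in normal libraries. In diabetic replicate 3 and normal replicate 2, where *Tpi1* was at 0, LOC100911515 held 26.6 and 24.3 CPM, within its range of 23.9 to 30.7 CPM over the libraries. Whether it took up reads of *Tpi1* was not tested. The sources used here do not say how reads that match several places were counted. Both loci together held 32.9 ± 5.55 CPM in diabetic and 34.0 ± 11.8 CPM in normal libraries (2-sided exact permutation p = 1), a sum added after the values had been seen.

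Glyceraldehyde-3-phosphate dehydrogenase, the enzyme of the step at which NADH is made, was annotated at several loci. Leaving out *Gapdhs*, which was tested among other genes of glycolysis, the files annotate 23 loci to it, of which 12 had counts. The locus LOC108351137 on chromosome 4 (rn6 chr4:157676595-157680303, minus strand) stood at 203, 212 and 118 FPKM in diabetic libraries, against 183, 171 and 119 FPKM in normal libraries. The groups overlapped, and its log2 fold change was 0.14 (SE 0.24, limma adjusted p 0.978). The locus AABR07034445 (rn6 chr11:72108963-72109964, minus strand) stood at 196, 203 and 171 FPKM in diabetic libraries, against 150, 41.2 and 106 FPKM in normal libraries, with a log2 fold change of 1.08 (SE 0.41, limma adjusted p 0.953).

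All 3 diabetic libraries lay above the normal ones at AABR07034445, which held for 3.94% of all loci. This locus, which carries no description, was picked as the highest of the other annotated loci and did not pass. Summed, the 23 annotated loci held 583 ± 137 CPM in diabetic and 505 ± 120 CPM in normal libraries (2-sided exact permutation p = 0.5). Whether each of these loci makes the enzyme was not tested. The sum overlapped between the groups.

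**Figure D3:**
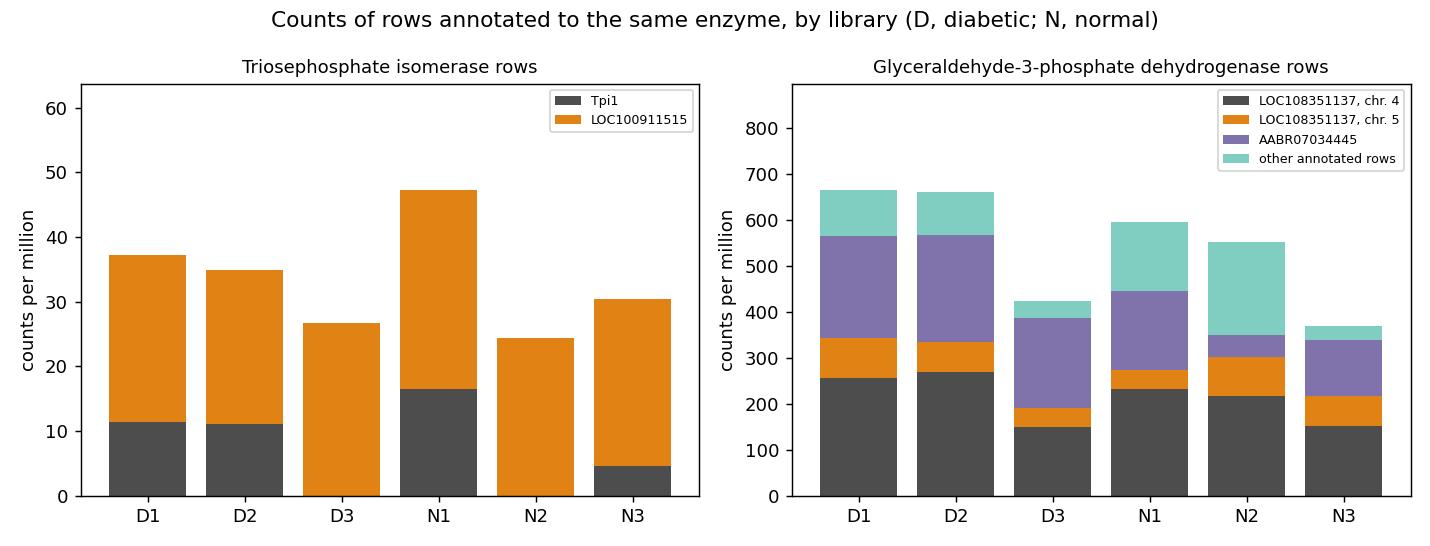
CPM in each library for loci annotated to triosephosphate isomerase (left) and to glyceraldehyde-3-phosphate dehydrogenase (right), stacked by locus. *Tpi1* is at 0 in diabetic replicate 3 (D3) and normal replicate 2 (N2), where LOC100911515 holds all the counts of the pair.

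The later enzymes of glycolysis were among the highest of all the genes studied. *Pgk1*, which makes the first ATP of the route, was at 40.6 ± 5.65 FPKM in diabetic and 39.5 ± 2.23 FPKM in normal libraries. *Pgam1*, the mutase that moves the phosphate of 3-phosphoglycerate (rn6 chr1:261158261-261165808, plus strand), stood at 47.3, 43.1 and 43.5 FPKM in diabetic libraries, against 41.8, 40.2 and 42.6 FPKM in normal libraries. The lowest diabetic and the highest normal library of *Pgam1* lay close together. Its log2 fold change was 0.10 (SE 0.09), with an adjusted p of 0.956 from limma and 0.991 from edgeR.

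*Eno1*, the general enolase, was at 195 ± 16.5 FPKM in diabetic and 183 ± 10.4 FPKM in normal libraries. *Eno2*, the enolase of neurons, had 290, 25 and 6 counts in diabetic libraries, against 74, 352 and 0 counts in normal libraries. At this locus it was high in 1 library of each group and averaged 0.499 FPKM in diabetic and 0.720 FPKM in normal libraries. A second locus that carries the name, without an annotated type, had 0, 115 and 0 counts in diabetic libraries, against 0, 0 and 162 counts in normal libraries, so that the libraries that were high differed between the loci and the level of *Eno2* is uncertain. *Eno2* lies on chromosome 4 near *Tpi1*, and a locus beside it, LOC100911672, was at 0 in normal replicate 2 as *Tpi1* was, with 2906, 1895 and 1721 counts in diabetic libraries, against 2287, 0 and 2200 counts in normal libraries. Whether reads moved between these loci was not tested.

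*Pkm*, pyruvate kinase (rn6 chr8:64481048-64502956, plus strand), had the highest level of the 36 genes. It stood at 246, 218 and 207 FPKM in diabetic libraries, against 207, 206 and 233 FPKM in normal libraries. The groups overlapped, with a log2 fold change of 0.05 (SE 0.13). The tables count the gene as a whole, so the M1 and M2 forms that it makes by splicing were not separated.

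Lactate dehydrogenase joins 2 kinds of subunit, of which the product of *Ldha* is known to favour lactate formation and that of *Ldhb* pyruvate formation. *Ldha* (rn6 chr1:102900286-102909707, plus strand) stood at 124, 112 and 102 FPKM in diabetic libraries, against 112, 108 and 118 FPKM in normal libraries. *Ldhb* (rn6 chr4:176701983-176720012, minus strand) stood at 22.6, 19.3 and 41.5 FPKM in diabetic libraries, against 42.9, 27.7 and 14.5 FPKM in normal libraries. *Ldha* was thus even across libraries, while *Ldhb* ranged widely within each group.

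The share of *Ldha* in the summed level was 84.5%, 85.4% and 71.0% in diabetic libraries, against 72.3%, 79.5% and 89.1% in normal libraries. The means were 80.3 ± 8.07% in diabetic and 80.3 ± 8.40% in normal libraries (2-sided exact permutation p = 1). *Ldha* was the larger part in each of the 6 libraries. The sign of the log2 fold change of *Ldhb* depended on the test, with 0.06 (SE 0.42) from limma and −0.02 from edgeR.

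The stretches before the starts of *Slc2a1*, *Ldha* and *Ldhb* are shown because these genes stand at the entry of glucose and at the lactate step, and because *Ldha* and *Ldhb* differ in level. They are from RefSeq (build GRCr8), are the 160 bases before the annotated start, read 5′ to 3′ on the strand of the gene, and capitals mark ACGTG or GCGTG on either strand (on the other strand CACGT or CACGC), the core letters to which hypoxia-inducible factors are known to bind. Overlapping matches were each counted, so that CACGTG counts on both strands.
*Slc2a1*, chr5:138002362-138002521, plus strand: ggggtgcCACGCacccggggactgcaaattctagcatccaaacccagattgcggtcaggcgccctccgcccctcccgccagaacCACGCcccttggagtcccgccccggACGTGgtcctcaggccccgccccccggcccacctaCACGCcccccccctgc
*Ldha*, chr1:106507932-106508091, plus strand: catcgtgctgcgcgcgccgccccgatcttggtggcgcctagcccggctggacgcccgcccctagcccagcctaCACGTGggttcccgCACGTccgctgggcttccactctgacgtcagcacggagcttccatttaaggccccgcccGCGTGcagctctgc
*Ldhb*, chr4:177177409-177177568, minus strand: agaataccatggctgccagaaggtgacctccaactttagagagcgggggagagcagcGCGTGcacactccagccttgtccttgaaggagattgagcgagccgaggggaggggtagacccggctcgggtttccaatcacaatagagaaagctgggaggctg
Within 250 bases before the start, *Slc2a1* and *Ldha* had 4 matches each and *Ldhb* had 1. *Pkm*, the gene of highest level, had 0. The most, 5 each, were found for *Pdhb* and *Pdk3*, which were under 10 FPKM in each library. Whether the number of matches goes with the level was not tested. A RefSeq window was at hand for 35 of the 38 named genes, 39 windows in all, and 24 of these (61.5%) held at least 1 match, against 36.7% of 33469 windows of all genes. At least 3 matches were found in 10 of the 39 windows (25.6%), against 6.21% of all windows. These are matches of letters and not measured sites.

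**Figure D4:**
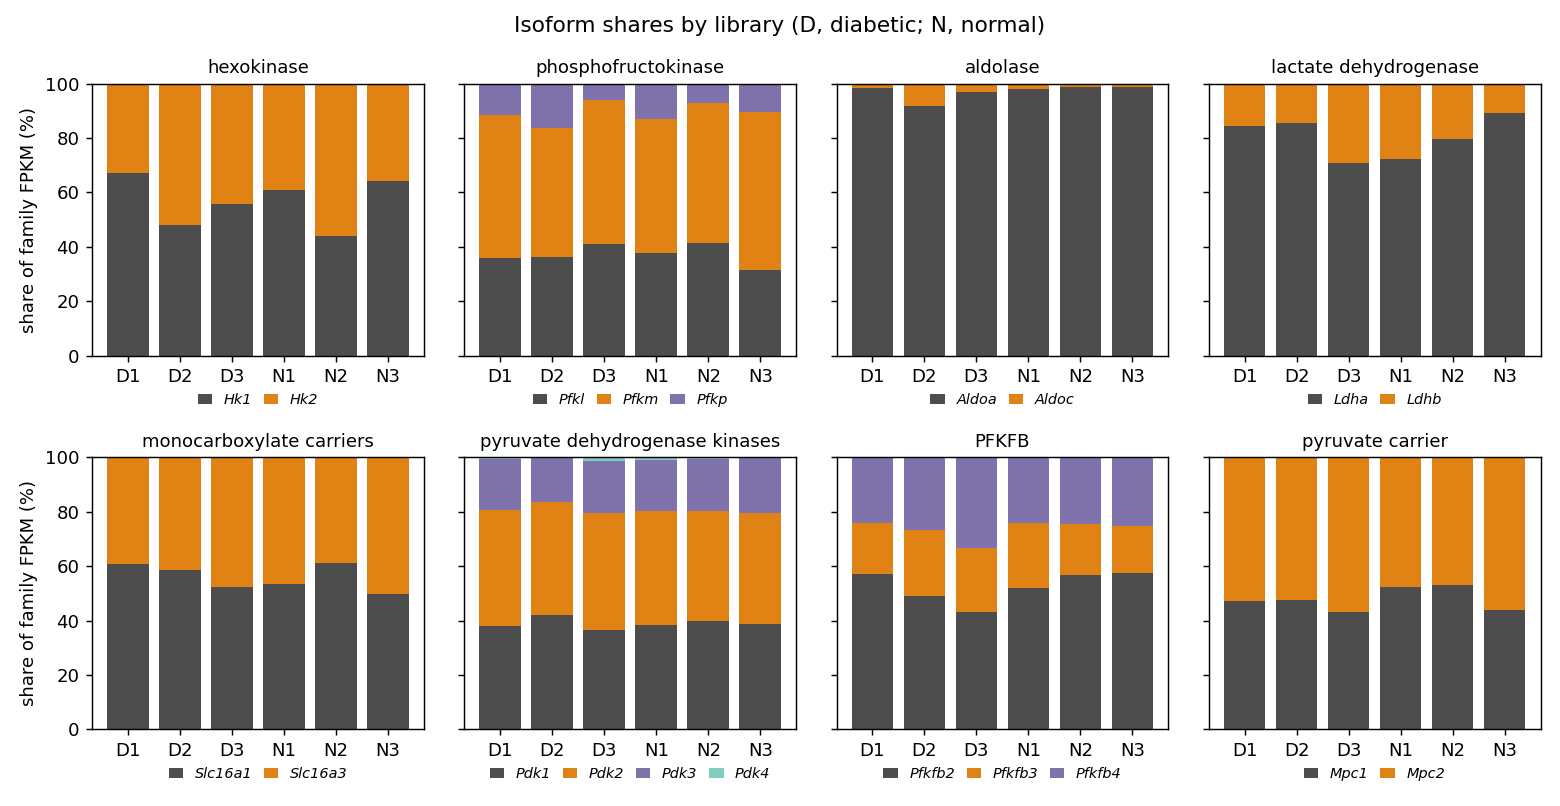
Share of each gene in the summed FPKM of its family (percent) in 3 diabetic (D1 to D3) and 3 normal (N1 to N3) libraries. *Ldha*, *Aldoa* and *Pfkm* are the largest part of their families in each library, while *Hk1* and *Hk2* change places in D2 and N2.

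The amount of fructose 2,6-bisphosphate, the activator of phosphofructokinase, is set by enzymes of the PFKFB family and lowered by the product of *Tigar*. *Pfkfb2*, the heart form, stood at 12.1, 8.84 and 5.89 FPKM in diabetic libraries, against 8.42, 11.5 and 10.1 FPKM in normal libraries. Diabetic libraries included both the highest and the lowest value of *Pfkfb2*, and the log2 fold change was −0.18 (SE 0.23). *Pfkfb3*, the form with the strongest kinase activity, averaged 3.85 ± 0.609 FPKM in diabetic and 3.55 ± 0.482 FPKM in normal libraries. *Pfkfb4* averaged 4.84 ± 0.295 FPKM in diabetic and 4.43 ± 0.504 FPKM in normal libraries. Its locus also carries the names *Shisa5* and *Ccdc51*, so that its value is uncertain. *Tigar* averaged 1.69 ± 0.315 FPKM in diabetic and 1.86 ± 0.043 FPKM in normal libraries.

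Of the pentose phosphate pathway, *Taldo1* (rn6 chr1:214375515-214385885, plus strand) was tested. It encodes transaldolase, which returns sugars from the pathway to glycolysis. *Taldo1* stood at 119.9, 160.05 and 77.3 FPKM in diabetic libraries, against 105, 104 and 86.0 FPKM in normal libraries. The diabetic libraries lay on both sides of the normal ones. The log2 fold change was 0.23 (SE 0.21, limma adjusted p 0.956), 0.0082 without diabetic replicate 2 and 0.44 without diabetic replicate 3. The order of the diabetic libraries, with replicate 2 highest and replicate 3 lowest, was that of the lens level (1368 and 8.59 FPKM). Among normal libraries, replicate 1 was highest in both. Normal replicate 3 was lowest for *Taldo1*, and normal replicate 2 was lowest for the lens level. That level was 397, 123 and 163 FPKM in normal replicates 1, 2 and 3. The part of lens RNA in *Taldo1* was not tested.

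Among 11 other tested genes of the pentose phosphate pathway, 0 passed with limma, edgeR or DESeq2. The log2 fold change was positive for 1 and negative for 10 of them, with a median of −0.07, where 49% of all loci were positive. The values ran from −0.53 for *Rpia* to 0.32 for *H6pd*. *Rpia* stood at 14.3 FPKM in normal replicate 2 and at 4.30 to 5.44 FPKM in the other libraries. *Tkt*, the transketolase for which the cornea is known, averaged 139 ± 19.9 FPKM in diabetic and 146 ± 5.55 FPKM in normal libraries. It was picked for its role after the values had been seen, and its groups overlapped.

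Pyruvate enters the mitochondrion through a carrier made of the products of *Mpc1* and *Mpc2*. *Mpc2* stood at 6.39, 7.49 and 6.81 FPKM in diabetic libraries, against 5.76, 6.74 and 8.44 FPKM in normal libraries. All 3 diabetic values of *Mpc2* lay inside the range of the normal libraries. *Mpc1* averaged 5.88 ± 0.839 FPKM in diabetic and 6.86 ± 0.715 FPKM in normal libraries, with a log2 fold change of −0.18 (SE 0.14). The share of *Mpc1* in the pair was 45.9 ± 2.55% in diabetic and 49.8 ± 5.25% in normal libraries (2-sided exact permutation p = 0.3).

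The pyruvate dehydrogenase complex, which commits pyruvate to oxidation, is built from the products of *Pdha1*, *Pdhb*, *Dlat* and *Dld*. *Pdha1*, the alpha subunit that the kinases phosphorylate, stood at 22.8, 24.6 and 24.3 FPKM in diabetic libraries, against 24.5, 24.8 and 20.8 FPKM in normal libraries. *Pdhb*, the beta subunit of the same enzyme (rn6 chr15:18539210-18546854, plus strand), stood at 7.25, 5.63 and 5.94 FPKM in diabetic libraries, against 7.78, 7.60 and 7.57 FPKM in normal libraries. The 3 normal libraries of *Pdhb* lay close together, and the diabetic ones all lay below them. Its log2 fold change was −0.24 (SE 0.11), the most negative of the 34, and it did not pass with limma (adjusted p 0.953), edgeR (adjusted p 0.991) or DESeq2 (adjusted p 1.0).

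*Dlat*, the acetyltransferase core of the complex, averaged 5.02 ± 0.693 FPKM in diabetic and 5.44 ± 0.372 FPKM in normal libraries. *Dld*, the subunit that it shares with other dehydrogenase complexes, averaged 4.23 ± 0.699 FPKM in diabetic and 5.002 ± 1.02 FPKM in normal libraries. Of the 4 subunits, *Pdha1* alone had a positive log2 fold change.

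The complex is switched off by pyruvate dehydrogenase kinases and on by a phosphatase. Of the kinase loci used, *Pdk2* had the highest mean, with *Pdk1* just above it in diabetic replicate 2. *Pdk2* stood at 16.3, 13.4 and 13.6 FPKM in diabetic libraries, against 15.0, 14.2 and 17.0 FPKM in normal libraries. *Pdk1*, known as a target of hypoxia-inducible factors, was at 13.2 ± 1.58 FPKM in diabetic and 14.6 ± 1.22 FPKM in normal libraries. A second locus named *Pdk1*, on the same strand, stood at 6.21, 6.28 and 4.32 FPKM in diabetic libraries, against 6.42, 6.74 and 8.07 FPKM in normal libraries. The other locus named *Pdk2*, on the opposite strand, held 1.81 to 2.96 FPKM. These loci were left out, so the order of *Pdk1* and *Pdk2* and the kinase shares are uncertain. *Pdk3* was at 6.17 ± 1.00 FPKM in diabetic and 7.23 ± 0.933 FPKM in normal libraries. *Pdk4*, the kinase known to be induced in muscle and heart by fasting and diabetes, was at 0.232 ± 0.187 FPKM in diabetic and 0.239 ± 0.116 FPKM in normal libraries, from 9 to 52 counts a library, and was under the minimum for testing.

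*Pdk4* thus took 0.700 ± 0.612% of the kinase FPKM in diabetic and 0.653 ± 0.345% in normal libraries (2-sided exact permutation p = 0.9). *Pdk2* took 42.4 ± 0.811% in diabetic and 41.1 ± 0.668% in normal libraries, where the groups overlapped (2-sided exact permutation p = 0.2). *Pdp1*, the phosphatase, was at 6.57 ± 0.617 FPKM in diabetic and 5.87 ± 0.434 FPKM in normal libraries, with a log2 fold change of 0.15 (SE 0.11). Over the 17 distinct shares computed for the families of these genes, the Benjamini-Hochberg adjusted p of the exact permutation tests ran from 0.971 to 1.

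The libraries of a group differed from each other in the whole set. The summed level of the 34 genes was 1180, 1152 and 985 FPKM in diabetic libraries, against 1096, 1059 and 1030 FPKM in normal libraries. Diabetic replicate 1 held the highest value for 11 of the 34 genes, and the lowest value lay in diabetic replicate 3 for 11 genes and in normal replicate 3 for 10. Among *Gpi*, *Aldoa*, *Pgk1*, *Pgam1*, *Eno1*, *Pkm*, *Ldha* and *Taldo1*, diabetic replicate 1 was the highest library for 5 of the 8 and diabetic replicate 3 the lowest for 5. Immediate early and stress genes varied within both groups, with a mean deviation of 0.85, −0.97 and −0.54 log2 units in diabetic replicates 1, 2 and 3, against 0.13, −0.16 and 0.69 in normal replicates 1, 2 and 3. Their part in the order of the libraries was not tested.

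**Figure D5:**
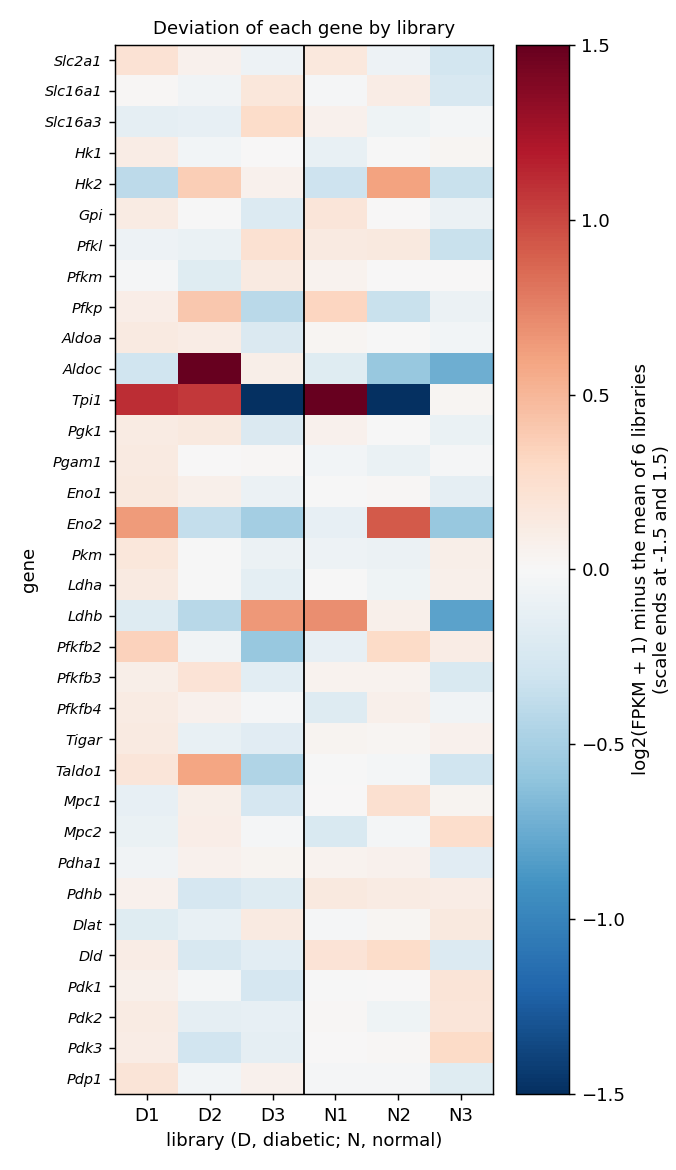
Deviation of log2(FPKM + 1) from the mean of the 6 libraries for the 34 tested genes in diabetic (D1 to D3) and normal (N1 to N3) libraries, without quantile normalization, on a colour scale that ends at 1.5 log2 units either way. The strongest colours are in *Tpi1* and *Aldoc*, and no library has 1 colour throughout.

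Other genes of the same routes were tested in the same fits. The log2 fold change was positive for 14 and negative for 10 of 24 other tested genes of glycolysis (median 0.05). Of 13 other genes of pyruvate entry 6 were positive and 7 negative (median −0.04), and of 4 genes of gluconeogenesis 2 were positive and 2 negative. Among 15 regulators of these routes, *Hif1a*, *Myc* and *Txnip* among them, 7 were positive and 8 negative. With limma, edgeR and DESeq2, 0 genes passed in these lists. The groups did not overlap for *Eno3*, *Slc2a9* and *Gpd2* of the glycolysis list, *Slc37a4* of the gluconeogenesis list and *Foxo1* of the regulators, all higher in diabetic libraries, where 3.94% of all loci were.

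Among 13 hypoxia-inducible genes outside glycolysis the sign was positive for 5 and negative for 8, and 0 passed with the 3 tools. *Egln3*, a prolyl hydroxylase that marks hypoxia-inducible factors for destruction, stood at 35.9, 39.9 and 37.3 FPKM in diabetic libraries, against 28.9, 30.1 and 32.8 FPKM in normal libraries. *Adm*, which encodes the vessel-dilating peptide adrenomedullin, stood at 3.29, 3.34 and 3.42 FPKM in diabetic libraries, against 4.52, 3.85 and 4.53 FPKM in normal libraries. *Egln3* and *Adm* are named because the groups did not overlap for either gene, which held for 9.66% of all loci, *Egln3* being higher (log2 fold change 0.31, SE 0.10) and *Adm* lower (−0.27, SE 0.11) in diabetic libraries, with a limma adjusted p of 0.953 for each.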

How the data were processed

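Total RNA of corneal epithelium was sequenced in 3 diabetic and 3 normal libraries. Per the labels, cutadapt, FastQC and Bowtie2 were used with the rat build rn6. Versions, the assembler and the counting program are not given in the sources, nor is the use of strand or of reads with several matches. The authors deposited raw counts per locus and FPKM values, in which 0.0001 stands where the count is 0 (86380 values) and was set to 0. log2(FPKM + 1) was quantile-normalized over 42551 loci with a mean of at least 0.5 FPKM and tested with limma 3.58.1 in R 4.3.3 (eBayes with trend, Benjamini-Hochberg over all loci; adjusted p under 0.05 and fold change over 1.2). The deposited counts were also tested with edgeR 4.0.16 (quasi-likelihood, TMM) and DESeq2 1.42.0. The fits were run on simulated counts with known changes, where a minimum of changes found was required of edgeR and DESeq2 and not of limma. Isoform shares were compared by 2-sided exact permutation tests.

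Per-library values are printed for those of the 34 genes without overlap between the groups, the highest gene of each role, genes of the other pathway lists with an unadjusted limma p under 0.05 and no overlap, and genes named for their role or values as the text says. The genes and lists were chosen with earlier results of these data known. Of the 36 genes, 13 have other loci of the same name, which were left out. Alternatives were other tests, normalizations, pseudocounts, filters, sets of loci, a replicate block and each library left out. Intervals and limits from counts cover counting error only. Figures were drawn with matplotlib 3.10.9.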

Additional observations from a re-analysis of the deposited data

How the results depend on the processing

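The number of genes passing stayed at 0 of 34 in all 18 alternatives, including the replicate block in limma and in edgeR, where the count was 0 as well. Same-numbered libraries did not deviate together (correlations −0.009, 0.025 and 0.032), so their numbers were not taken as pairs, and over all loci the block left 1 call of limma in place of 11 and 0 of edgeR in place of 6. Of 579 alternative fold changes 42 had the other sign, over 20 genes, and 14 genes kept their sign throughout. *Ldhb* turned negative on the counts (−0.019 with edgeR, −0.0135 with DESeq2, −0.0135 with edgeR and RLE size factors, −0.0096 with edgeR without the filter). Without quantile normalization *Ldha* was −0.0062 and *Mpc2* −0.0039, and with the replicate block in edgeR *Tpi1* was −0.37 and *Eno2* 0.25. Leaving out 1 library at a time gave log2 fold changes of both signs for 19 genes. They ran from −0.0028 to 0.19 for *Slc16a1*, −0.072 to 0.095 for *Slc16a3*, −0.14 to 0.36 for *Hk2*, −0.087 to 0.0095 for *Gpi*, −0.11 to 0.14 for *Pfkl*, −0.11 to 0.046 for *Pfkm*, −0.12 to 0.32 for *Pfkp* and −0.030 to 0.096 for *Aldoa*. They ran from −0.68 to 1.202 for *Tpi1*, −0.0011 to 0.12 for *Pgk1*, −0.030 to 0.066 for *Eno1*, −0.47 to 0.31 for *Eno2*, −0.022 to 0.11 for *Pkm* and −0.34 to 0.41 for *Ldhb*. For *Pfkfb2* the range was −0.40 to 0.061, for *Tigar* −0.19 to 0.0047, for *Mpc2* −0.099 to 0.14, for *Pdha1* −0.013 to 0.12 and for *Pdk2* −0.14 to 0.00020. *Aldoc* ran from 0.40 without diabetic replicate 2 to 1.39 without diabetic replicate 1. The smallest adjusted p of any gene in any alternative was 0.257 (*Aldoc*, DESeq2). The cause of these shifts was not tested. With 3 libraries a group, small changes of genes with low or uneven counts could not be detected.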
